A study of Homo sapiens with 9 samples.

Results

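The cytosolic ribosomal protein genes encode the protein parts of the ribosome, the particle that translates mRNA in the cytoplasm. They were taken as the rows of the gene table whose symbol is RPL or RPS with a number (and at most an A, X or L suffix), or RPLP0, RPLP1, RPLP2 or RPSA, with at least 10 counts in every library. Of 59452 gene rows, 84 had such a symbol and 81 passed the minimum, 49 of the large subunit and 32 of the small subunit. The subunit was taken from the symbol, so that RPL7L1, a nucleolar assembly factor, counts with the large subunit. The 3 symbols below the minimum were RPL10L and RPL39L, with 0 counts in every library, and RPL3L, with 0 to 3 counts, which are tissue-restricted paralogs. The 81 genes all stood among the 15528 genes tested.

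The libraries came from MDA-MB-453, 1 human breast cancer cell line with a wild-type genotype that the labels call triple-negative. The 3 groups, each of 3 biological replicates after 48 hours, were attached culture with vehicle (DMSO), forced suspension on poly-HEMA coated plates with vehicle, and forced suspension with 10 µmol/L AT0174, an inhibitor of the tryptophan-degrading enzymes TDO2 and IDO1. All cells grew in DMEM with 10% fetal bovine serum, and none of the 9 libraries came from attached cells with AT0174. A difference with AT0174 could thus be measured in suspended cells only. RNA was measured by bulk RNA-seq at 36649997 to 48019126 estimated counts per library. The labelled cell type was checked against markers. All 7 luminal epithelial markers were above 10 CPM (counts scaled to a common library size by TMM, which matches libraries on most genes) in every library, at 48.3 to 1092 CPM, with ERBB2 at 1018 to 1092 CPM. ERBB2, the gene of HER2, was the highest of the 7, and the estrogen and progesterone receptor genes were not among the markers. The triple-negative label was thus not tested. Of 10 markers of other cells, 8 were below 1 CPM in every library, CD68 reached 2.32 CPM and the collagen gene COL1A1 stood at 108 to 145.0 CPM. Attached replicate 3 and AT0174 replicate 1 stood apart from the other libraries of their groups in a chi-square of counts per gene (11.2 and 12.1 against 3.06 between the other attached libraries, and 9.44 and 17.4 against 6.85 for AT0174). Values without them are given beside the summed shares and medians, but not for every gene named. In bulk RNA, fewer cells of a type and less RNA per cell cannot be told apart.

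A ribosome holds nearly all of these proteins in 1 copy each, and cells keep their mRNAs at high and broadly similar levels. Most of the mRNAs begin with a C followed by a run of C and T letters, the terminal oligopyrimidine (TOP) tract, through which the kinase mTORC1 and the RNA-binding protein LARP1 control their translation and stability. Proteins made in excess are degraded, and some free ones, such as RPL5 and RPL11, bind the p53 regulator MDM2.

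The start of transcription is shown for the genes on which the results below turn, as 10 bases before and 15 bases from the RefSeq start on GRCh38.p14, read along the gene. Capitals mark a TOP-like tract, here a C at the start itself with at least 4 C or T letters directly after it. Where RefSeq lists more than 1 start, the one with the longest tract is shown. The first set holds genes with the smallest p or the largest change among those that rose in suspension.
RPS28 (chr19:8321486-8321510, plus strand): gaagcacgtgactcctctccgccag
RPS12 (chr6:132814559-132814583, plus strand): cggatgaggcCTCTTTCCCTgccgc
RPS13 (chr11:17077653-17077677, minus strand): ctctcgctctCCTTTCgttgcctga
RPL38 (chr17:74203668-74203692, plus strand): aagtctcgttCTTTTTCgtcctttt
RPS7 (chr2:3575250-3575274, plus strand): cgccctcctcctcgcgctgtttccg
RPL39 (chrX:119791616-119791640, minus strand): ccgccagcttCCCTCCTCTTCCTTT

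The second set holds 4 genes that were not called different in suspension and which carry tracts of the same kind.
RPS25 (chr11:119018329-119018353, minus strand): gcagcgcttcCTTTTTgtccgacat
RPL11 (chr1:23691796-23691820, plus strand): gctccgctttCTCTTCCTgctctcc
RPL36A (chrX:101391001-101391025, plus strand): ctcgcggtttCTTTCTTTCCgcgcc
RPL26 (chr17:8383179-8383203, minus strand): gcgtgtagttCTCTTCCCTTTTgcg

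The third set holds the 4 low-level paralogs and the common genes of 2 of them. The starts of RPL26L1, RPS27L and RPL7L1 hold no such tract, whereas that of RPL22L1 does.
RPL26L1 (chr5:172958719-172958743, plus strand): tccaggggtcggcgaacgaaacgcg
RPS27 (chr1:153990752-153990776, plus strand): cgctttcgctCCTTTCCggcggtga
RPS27L (chr15:63157463-63157487, minus strand): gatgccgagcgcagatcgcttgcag
RPL22 (chr1:6199581-6199605, minus strand): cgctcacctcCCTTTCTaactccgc
RPL22L1 (chr3:170870181-170870205, minus strand): ccgtagcttcCTCTCTgctctcgcg
RPL7L1 (chr6:42879606-42879630, plus strand): gtgcggcgccgtagctaggagcgga

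A RefSeq promoter window (250 bases before to 50 after the start) was matched by symbol for 66 of the 81 genes. A TOP-like tract at a listed start was found in 47 of these 66 genes (71.2%), against 937 of 14220 tested genes (6.59%) and 1404 of all 27305 genes with a window (5.14%). When the run could begin within 5 bases of the start, 54 of the 66 genes (81.8%) held one, against 28.3% of the tested genes. RPS28, with an A at the listed start, and RPS7 were among them. On either strand of the whole window, CCGGAAG (the core bound by ETS-family factors) lay in 24 of the 66 genes and in 18.3% of the tested genes. AAGATGGCG (a YY1 motif) lay in 6 of them and in 3.61% of the tested genes, CACGTG (the E-box) in 5 and 11.6%, and TATAAA (the TATA box) in 6 and 10.2%. RPS28 holds CACGTG within the bases shown. These are matches of letters and not bound sites.

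Levels between genes were compared as TPM, the transcript abundance of Salmon, which corrects for effective length. Averaged over the 9 libraries, the levels ran from 31.4 TPM for RPL22L1 to 5016 TPM for RPS2, and 40 of the 81 genes were among the 100 genes of highest TPM. The 4 highest were RPS2 (5016 TPM), which lies at the mRNA entry of the small subunit, RPL10 (4325 TPM), which joins the large subunit late in assembly, RPL41 (3446 TPM), which encodes a very short peptide, and RPLP1 (3194 TPM), a protein of the stalk that recruits translation factors. The 4 lowest were the paralogs RPL22L1 (31.4 TPM), RPL26L1 (74.4 TPM), RPS27L (75.2 TPM) and RPL7L1 (111.8 TPM), and the next gene, RPS13, stood at 260.0 TPM. Among the 77 other genes, 65 lay between 500 and 2000 TPM, and the highest stood 19.3-fold above the lowest.

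The order of levels was resolved better between distant genes than between neighbours. The coefficient of variation between replicates had a median over genes of 3.18% in attached cells, 2.31% in suspended cells with vehicle and 3.49% with AT0174. RPS27L and RPL26L1 could not be ordered, since their TPM values overlapped. The widest spread was that of RPS23 in attached cells, with a coefficient of variation of 16.9%, and its CPM was 289, 289 and 212 in the 3 attached libraries. TPM depends on assigning reads to short transcripts: the effective length had a median of 472 bases over the 81 genes and was under 500 bases for 47 of them.

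**Figure D1:**
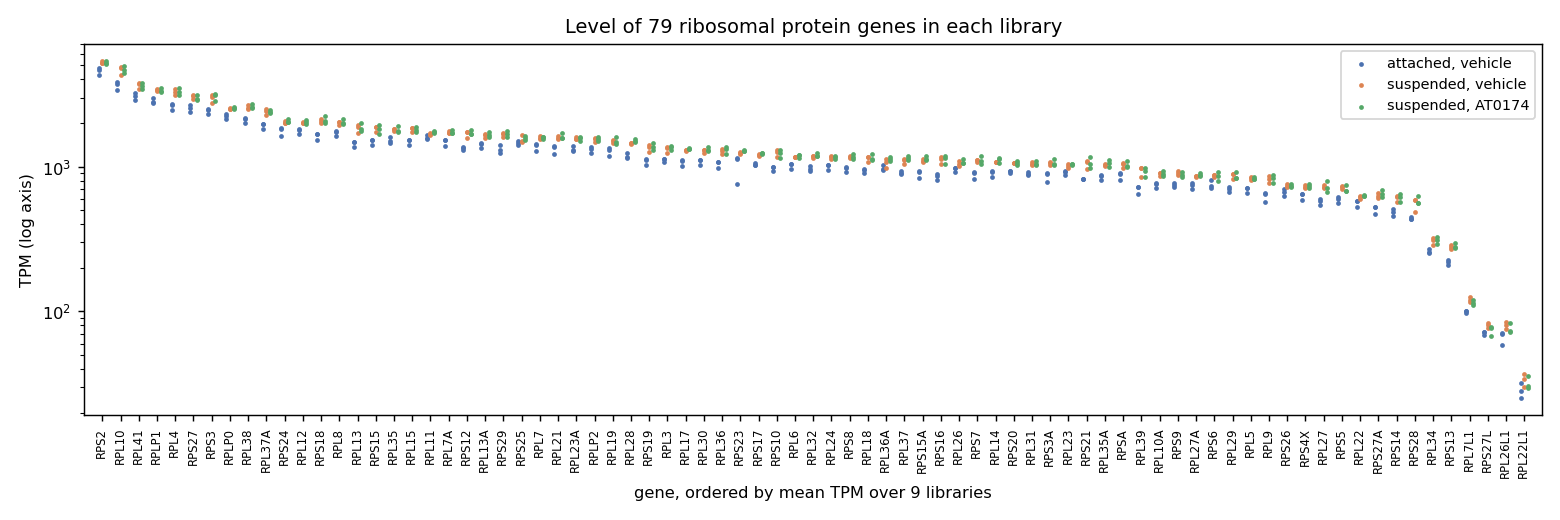
TPM of 79 of the 81 ribosomal protein genes (log axis) in each of 9 libraries, 3 per group and coloured by group, ordered by mean TPM. Levels fall gradually from RPS2 at 5016 TPM to RPS13 at 260.0 TPM and then drop to the 4 paralogs between 31.4 and 111.8 TPM; suspended libraries lie above attached ones for most genes.

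In suspension the ribosomal protein genes were higher as a group by a small amount. Summed over the 81 genes, they took 3.52%, 3.57% and 3.33% of all counts in the attached libraries and 3.90%, 4.02% and 4.02% in the suspended vehicle libraries. The means were 3.48% ± 0.128 and 3.98% ± 0.0684 (SD, n = 3 each), a ratio of 1.15, and the groups did not overlap. The two-sided exact permutation test gave p = 0.1, the smallest that 3 against 3 libraries allow. The log2 ratio of the shares was 0.20, and 0.17 without attached replicate 3. Counts from the mitochondrial genome moved in the same libraries, from 8.19% ± 0.984 of all counts in attached cells to 4.17% ± 0.151 in suspension. With these counts left out of the total, the share of the ribosomal protein genes was 3.78% ± 0.10 and 4.15% ± 0.0651, a ratio of 1.1. On the TMM-scaled level the sum rose from 35355 ± 1017 to 39189 ± 415 CPM, a ratio of 1.11, and as a share of TPM from 9.66% ± 0.433 to 11.6% ± 0.267, a ratio of 1.2.

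Gene by gene, edgeR's quasi-likelihood test over all 15528 genes (called at a Benjamini-Hochberg adjusted p under 0.05) called 64 of the 81 genes higher in suspension and 0 lower. Thus 79.0% were called higher, where 10.4% of all genes tested were called higher and 10.8% lower. The 3 suspended libraries lay above the 3 attached ones for 72 genes (88.9%), against 19.4% of all genes, the groups overlapped for the other 9, and 0 genes had the groups apart in the other direction. An unadjusted p under 0.05 was reached by 70 of the 81 genes (86.4%), against 34.1% of all genes. The shares of all genes and transcripts, here and below, were not matched for level, and many of the 81 genes are among the most abundant. The median log2 fold change was 0.16 (1.12-fold), with a range of -0.01 to 0.32 and quartiles of 0.12 and 0.19, against -0.00 over all genes. TMM scaling itself holds the median of all genes near 0, so the rise is relative to the other genes. The highest change was 1.25-fold, and 4 genes were at least 1.2-fold higher. The large subunit had 41 of 49 genes called and a median log2 fold change of 0.15, and the small subunit had 23 of 32 and 0.18. Without attached replicate 3, 52 genes were called higher and the median was 0.14, and without suspended vehicle replicate 2, 51 were.

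**Figure D2:**
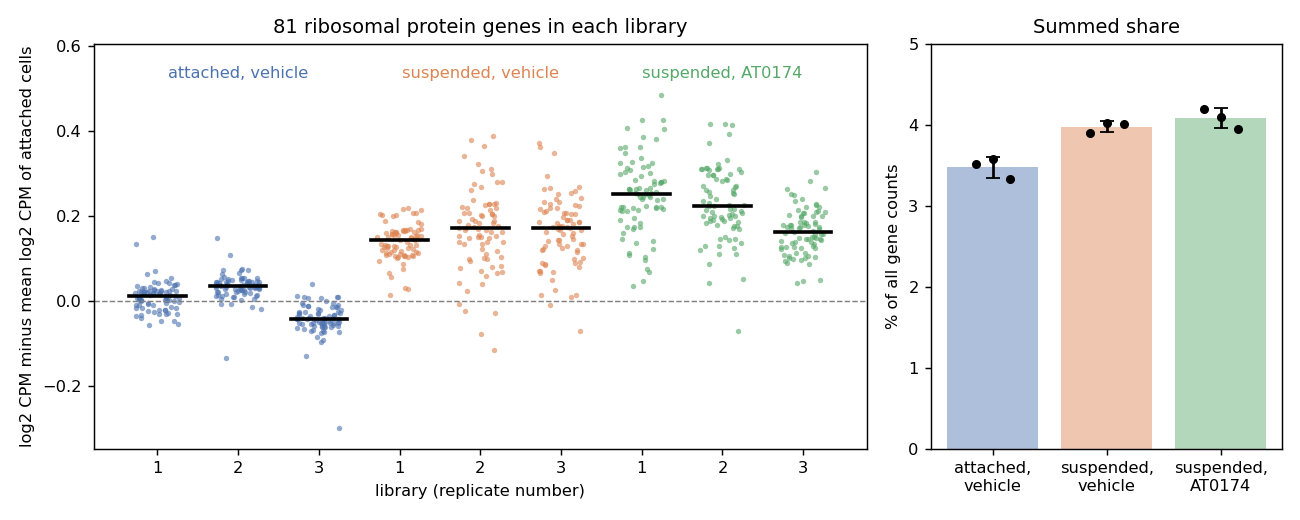
Left, log2 CPM of each of the 81 genes minus its mean over the attached libraries, 1 point per gene and 1 column per library, with bars at the medians. Right, their summed percent of all gene counts, with bars at the mean of 3 libraries, error bars of 1 SD and points for libraries; the medians on the left are 0.01, 0.03 and -0.04 in attached, 0.14, 0.17 and 0.17 in suspended vehicle and 0.25, 0.22 and 0.16 in AT0174 libraries.

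The same shift was seen library by library. The median deviation of the 81 genes from their attached mean was 0.01, 0.03 and -0.04 in the attached libraries and 0.14, 0.17 and 0.17 in the suspended vehicle libraries on the log2 scale. Above the attached mean were 54, 76 and 7 genes in the attached libraries and 81, 76 and 79 in the suspended ones. The genes of a library thus shift together, and counts of genes are not independent of each other. Attached replicate 3, in which most of the genes lay below the mean of their group, was also the attached library with the most mitochondrial counts (9.32%, against 7.69% and 7.56%), and the part of this in the result was not tested.

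Most of these genes are short, and short genes other than these rose slightly. The 2873 other genes with an effective length under 1000 bases had a median log2 fold change of 0.03 in suspension, against 0.16 for the 78 ribosomal protein genes in that range. Among genes with an effective length under 500 bases, the medians were 0.04 for 804 other genes and 0.17 for 47 ribosomal protein genes.

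**Figure D3:**
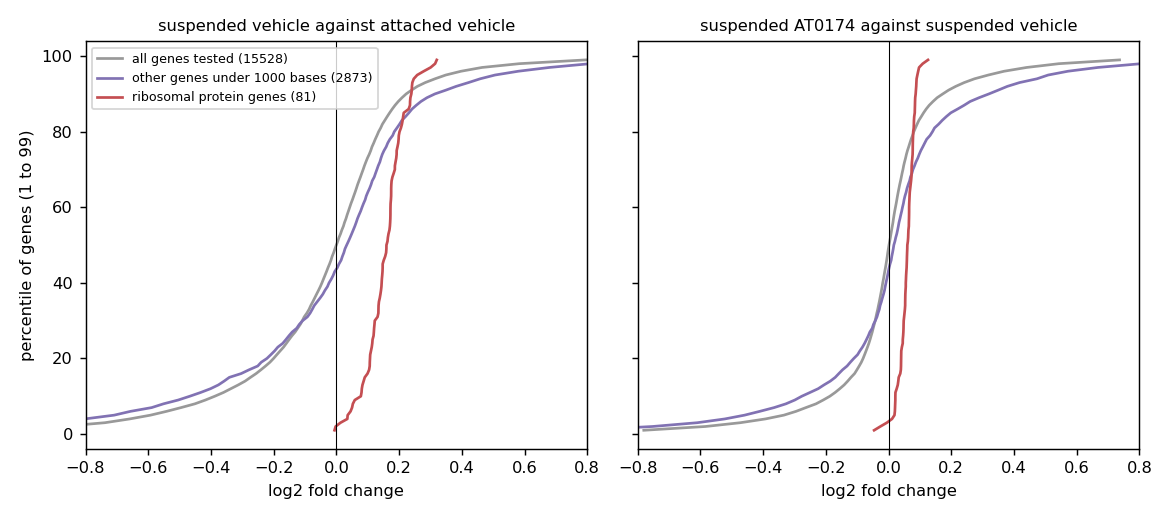
Log2 fold change at the 1st to 99th percentile for all 15528 genes tested, for the 2873 other genes with an effective length under 1000 bases and for the 81 ribosomal protein genes. In suspension against attachment (left) the full range of the ribosomal protein genes is -0.01 to 0.32 with a median of 0.16, and with AT0174 against vehicle (right) -0.06 to 0.13 with a median of 0.06. The curves stop short of the ends of these ranges.

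Among the genes with the smallest p in suspension were RPS28, RPS12, RPS13, RPL38 and RPS7. RPS28, a small-subunit protein at the mRNA exit, stood at 181, 187 and 182 CPM in attached cells and at 211, 236 and 236 CPM in suspension, a log2 fold change of 0.31 ± 0.05 (SE; edgeR adjusted p = 0.00113). RPS12 stood at 328, 338 and 331 CPM against 370, 402 and 400 CPM (0.23 ± 0.04). For both genes the lowest suspended library lay above the highest attached library. RPS13, the least abundant gene outside the paralogs, stood at 59.7, 58.9 and 56.9 CPM against 67.4, 71.0 and 68.0 CPM (0.24 ± 0.04). RPL38, known for a selective role in the translation of Hox mRNAs, stood at 357, 355 and 341 CPM against 391, 393 and 405 CPM (0.18 ± 0.03). RPS7 stood at 345, 352 and 329 CPM against 394, 401 and 394 CPM (0.21 ± 0.04). The adjusted p of these genes ran up to 0.00218, and none had overlapping groups.

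The largest fold change was that of RPL39, which lines the peptide exit tunnel, at 119, 121 and 111 CPM in attached cells and 135, 152 and 151 CPM in suspension (log2 fold change 0.32 ± 0.06, edgeR adjusted p = 0.00371). RPL9 also changed by at least 1.2-fold, at 234, 227 and 208 CPM against 259, 283 and 273 CPM (0.28 ± 0.05). Among the 4 most abundant genes, RPL10 (0.21 ± 0.05), RPL41 (0.16 ± 0.04) and RPLP1 (0.17 ± 0.03) were called higher. RPS2 was not (0.08 ± 0.03, adjusted p = 0.114), and its attached and suspended libraries overlapped, at 2606, 2740 and 2525 CPM against 2786, 2809 and 2713 CPM. RPL41 missed the threshold without attached replicate 3 or suspended vehicle replicate 2 or 3 (edgeR adjusted p of 0.0533, 0.0505 and 0.0507), and RPS2 passed it without attached replicate 2 (0.0345).

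The 3 stalk genes were each called higher. RPLP0, which anchors the stalk, rose by 0.16 ± 0.03 on the log2 scale, and its partners RPLP1 and RPLP2 by 0.17 ± 0.03 and 0.14 ± 0.04. The log2 ratio of RPLP1 to RPLP2 changed by 0.04, with overlapping groups (exact permutation p = 0.2). Of the genes with other known roles, RPL3 and RPL10A rose by 0.15 ± 0.03 and 0.13 ± 0.03. RPL13A, which also has a role outside the ribosome in interferon-γ-induced silencing, rose by 0.12 ± 0.03. RPS3, at the mRNA entry, rose by 0.17 ± 0.04, and RPS19, the gene most often mutated in Diamond-Blackfan anaemia, by 0.19 ± 0.04. RPSA, known also as the laminin receptor, rose by 0.16 ± 0.04, and RPS27A, made as a fusion to ubiquitin, by 0.21 ± 0.05. These 7 genes had the groups apart and an edgeR adjusted p of at most 0.0136. RPLP2 missed the threshold without attached replicate 1 or 3 or suspended vehicle replicate 2 or 3 (edgeR adjusted p of 0.0571, 0.0733, 0.0752 and 0.0510), and RPL10A without attached replicate 3 or suspended vehicle replicate 2 (0.0504 and 0.0525). RPLP0 missed it with counts rebuilt from TPM, at a log2 fold change of 0.08 and an adjusted p of 0.128.

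The 17 genes not called had log2 fold changes of -0.01 to 0.17. Among them were RPS25, RPL36A, RPL11, RPL26, RPL23, RPL22, RPS26, RPS2, RPL12, RPS27L, RPL6, RPS24, RPS4X, RPS6, RPL22L1 and RPS23. RPL11 stood at 544, 534 and 533 CPM in attached cells and 548, 529 and 533 CPM in suspension (-0.00 ± 0.03). RPS25, a protein used by viral internal ribosome entry sites, stood at 349, 363 and 351 CPM against 381, 336 and 337 CPM (-0.01 ± 0.04). RPL36A stood at 196, 210 and 204 CPM against 207, 187 and 213 CPM (-0.00 ± 0.04), and RPL26, a regulator of p53 mRNA translation, at 259.9, 267 and 253 CPM against 281, 255 and 262 CPM (0.03 ± 0.04). In all 4 the groups overlapped.

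Other genes missed the threshold while the groups lay apart. RPS6, the substrate of the S6 kinases, stood at 434, 468 and 431 CPM against 491, 470.0 and 482 CPM (0.11 ± 0.05, edgeR adjusted p = 0.10). RPS4X, the X-linked form of its protein, had 0.10 ± 0.03 and an adjusted p of 0.0510. RPS24, another Diamond-Blackfan anaemia gene, had 0.09 ± 0.04 and 0.0872, and RPL23, a further MDM2-binding protein, 0.05 ± 0.03 and 0.319. RPS23, in the decoding centre, had 0.17 ± 0.09 (adjusted p = 0.180), a value that rests on attached replicate 3, and without that library it was 0.04 ± 0.03 with an adjusted p of 0.434. RPS6 and RPS4X passed without attached replicate 2 (edgeR adjusted p of 0.0495 and 0.0397), and without a filter on low counts (0.0168 and 0.0409). RPS4X also passed by DESeq2 (0.0208), by limma-voom (0.0414), with TMM made without these genes (0.0455) and when each library had to reach 10 counts (0.0479). RPS23 passed without a filter (6.05e-05).

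To separate unequal change from the common shift, the fit was repeated with each library scaled to the summed count of the 81 genes. On that scale the median of all genes moved to -0.15 and that of the ribosomal protein genes to 0.01, and 5 genes were called higher and 4 lower than their sum. The share of all genes called on that scale is not given here, so these counts were not set beside a background. Among the higher were RPL39 (0.17), RPS28 (0.16), RPL9 (0.14) and RPS18 (0.09), as log2 fold changes with edgeR adjusted p of 0.0180, 0.0116, 0.0262 and 0.0457. Lower were RPS25 (-0.16), RPL36A (-0.15), RPL11 (-0.15) and RPL23 (-0.10), with adjusted p of 0.0378, 0.0468, 0.00638 and 0.0448. The other 72 genes did not depart from the sum beyond the test's threshold.

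RPL5 and RPL11, which with 5S rRNA form the particle that binds MDM2, moved unequally. RPL5 stood at 437, 439.7 and 415 CPM in attached cells and 474, 473 and 483 CPM in suspension (log2 fold change 0.15 ± 0.03, edgeR adjusted p = 0.00622). The log2 ratio of RPL5 to RPL11 was -0.32, -0.28 and -0.36 in attached libraries, -0.21, -0.16 and -0.14 in suspended vehicle libraries and -0.19, -0.23 and -0.19 in AT0174 libraries. It changed by 0.15 in suspension with the groups apart, at the smallest exact permutation p of 0.1 (0.45 adjusted over 12 ratio tests).

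**Figure D4:**
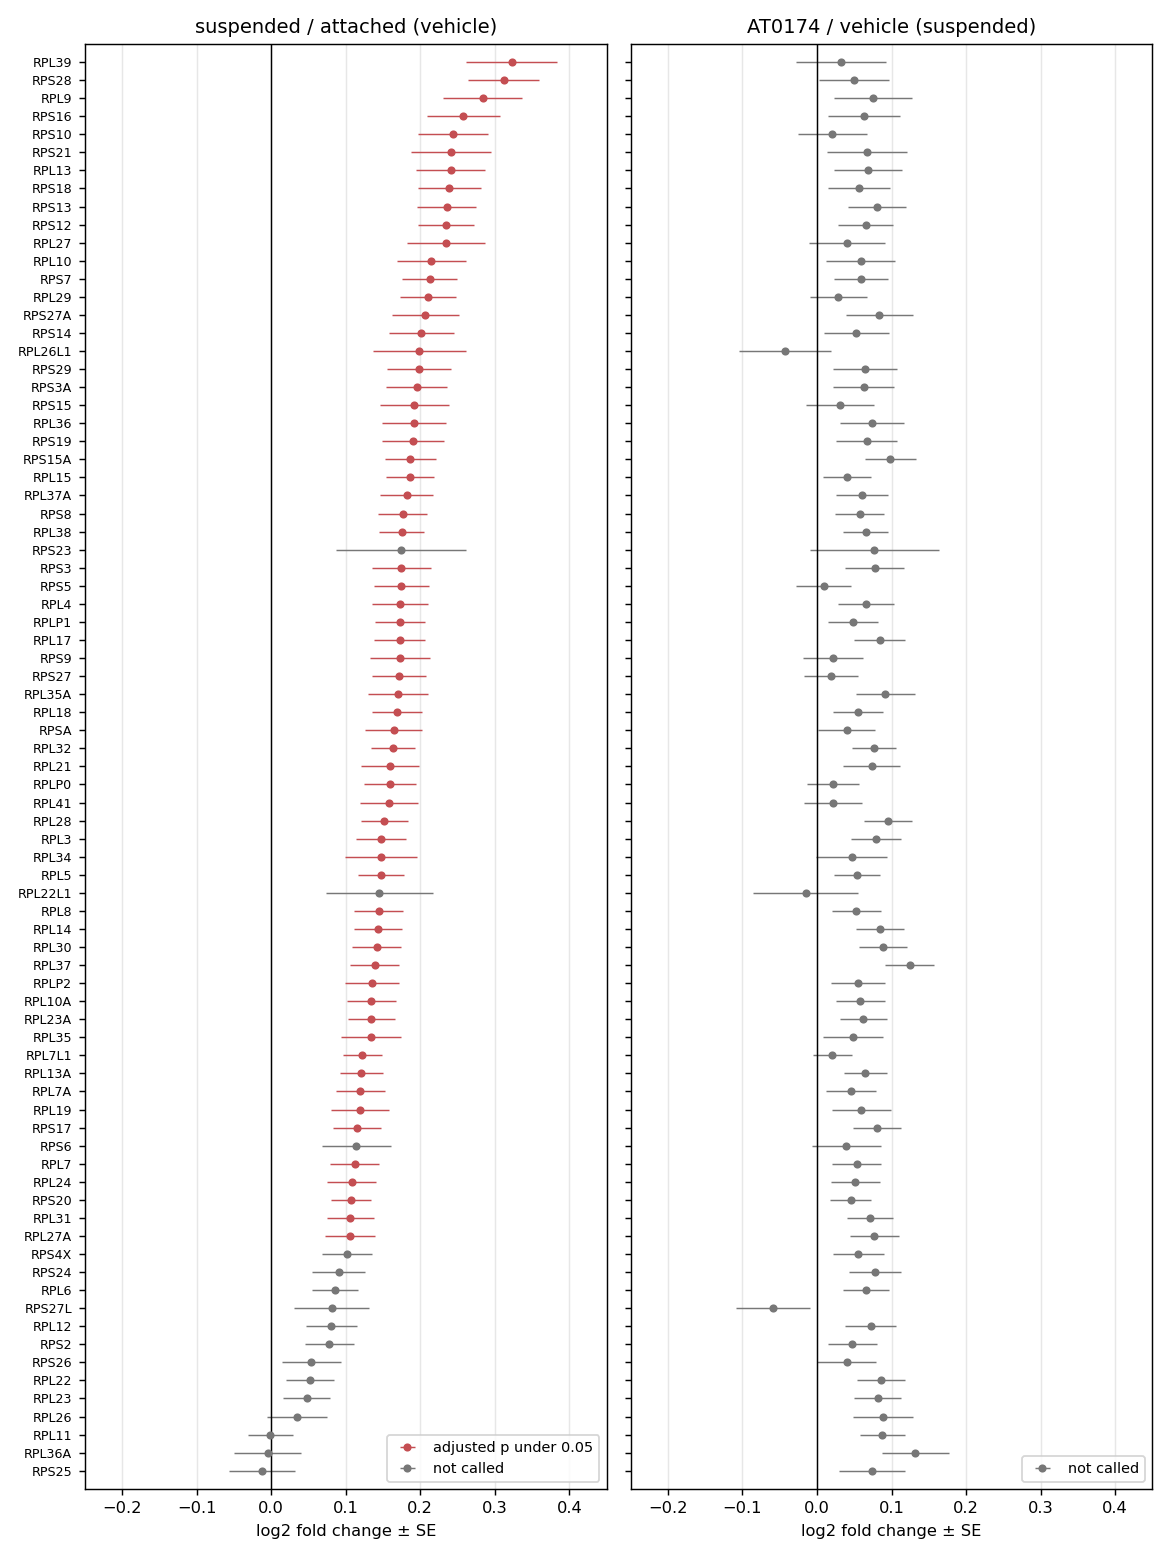
Log2 fold change with its SE for 79 of the 81 genes, ordered by the change in suspension, for suspended against attached cells with vehicle (left) and for AT0174 against vehicle in suspended cells (right). On the left most genes are called (red) and lie above 0, and on the right 0 are called and 3 genes, all paralogs, lie below 0.

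The paralogs were followed beside their common genes. RPL22 (0.05 ± 0.03) and RPL22L1 (0.15 ± 0.07), whose expression is held down by RPL22 protein in other cells, were both not called in suspension. RPL22L1 stood at 13.8, 11.4 and 12.5 CPM against 13.5, 13.9 and 14.3 CPM, with overlap. RPL26L1 was called higher (26.1, 27.7 and 23.5 against 28.5, 29.9 and 30.2 CPM, log2 fold change 0.20 ± 0.06, edgeR adjusted p = 0.0397), while RPL26 was not. RPS27 was called higher (0.17 ± 0.04), and RPS27L, a p53 target, had 0.08 ± 0.05 and was not called. RPL7 (0.11 ± 0.03) and RPL7L1 (0.12 ± 0.03), the latter a nucleolar assembly factor, were both called. RPL26L1 missed the threshold without attached replicate 1 or 3 or suspended vehicle replicate 2 or 3 (edgeR adjusted p of 0.0751 to 0.154), and RPL7 without attached replicate 3 or any 1 suspended vehicle library (0.0592 to 0.0973). The log2 ratios of CPM in these 4 pairs overlapped between groups in both comparisons, with exact permutation p of 0.2 to 0.7 (0.45 to 0.764 adjusted over the 12 tests).

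With AT0174 in suspended cells, none of the 81 genes passed the test, and the group lay slightly higher. The genes took 4.20%, 4.10% and 3.95% of counts with AT0174, against 3.90%, 4.02% and 4.02% with vehicle. The means were 4.09% ± 0.123 and 3.98% ± 0.0684 (SD, n = 3 each), a ratio of 1.03, the third AT0174 library lay between the vehicle libraries, and the exact permutation p was 0.3. The log2 ratio of the shares was 0.04, and 0.02 without AT0174 replicate 1. As summed CPM the ratio was 1.04 (40833 ± 1183 against 39189 ± 415, exact permutation p = 0.2), and as a share of TPM 1.01 (exact permutation p = 0.8). The comparison shares the suspended vehicle libraries with the one above, so a library low or high in that group moves both in opposite directions.

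Of the 15528 genes, 0.779% were called with AT0174 in either direction by edgeR, and 0 of the 81 ribosomal protein genes were. The lowest adjusted p among them was 0.140. DESeq2 called 1 gene, RPL37, and limma-voom called 0, and the shares of all genes called by these methods are not given here. An unadjusted p under 0.05 was reached by 20 of the 81 genes (24.7%), against 9.02% of all genes, again not matched for level. The 3 AT0174 libraries lay above the 3 vehicle libraries for 25 genes (30.9%), against 7.75% of all genes, and the groups overlapped for 56. A log2 fold change above 0 was measured for 78 genes (96.3%), against 50.7% of all genes, with a median of 0.06 (1.04-fold) and a range of -0.06 to 0.13, against 0.00 over all genes. Here too the scaling holds the median of all genes near 0. The median SE of a single gene was 0.04 on the same scale. Without AT0174 replicate 1, which had the highest share, the median was 0.04 and 0 genes were called. The genes of a library shift together, so the counts of genes above are not independent of each other. By library, their median deviation from the attached mean was 0.25, 0.22 and 0.16 with AT0174, against 0.14, 0.17 and 0.17 with vehicle, and the groups overlapped.

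RPL37, a zinc-binding large-subunit protein, stood at 299.8, 309 and 311 CPM with vehicle and 338, 342 and 321 CPM with AT0174, a log2 fold change of 0.12 ± 0.03 (edgeR adjusted p = 0.140, DESeq2 adjusted p = 0.0260). With all libraries RPL36A had the largest change, from 207, 187 and 213 CPM to 218, 222 and 225 CPM (0.13 ± 0.04, edgeR adjusted p = 0.323). In both genes the groups lay apart. Without vehicle replicate 2, the lowest for RPL36A, its log2 fold change was 0.07 and that of RPL37 0.12. Over the other single libraries left out, RPL36A kept 0.12 to 0.17. RPL11 stood at 574, 583 and 553 CPM with AT0174, against 548, 529 and 533 CPM (0.09 ± 0.03, adjusted p = 0.332), and RPL22 at 347, 361 and 352 CPM, against 338, 336 and 324 CPM (0.09 ± 0.03, adjusted p = 0.401). RPS28 and RPL38, which had risen in suspension, had 0.05 ± 0.05 and 0.07 ± 0.03, and RPLP0 and RPS6 0.02 ± 0.03 and 0.04 ± 0.05. With 1 library left out, RPLP0 ranged from 0.00295 to 0.0423 and RPS6 from 0.00450 to 0.0851. The 3 genes below 0 were the paralogs RPS27L (-0.06 ± 0.05), RPL26L1 (-0.04 ± 0.06) and RPL22L1 (-0.02 ± 0.07), and their groups overlapped.

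Transcripts within the genes were compared as their percent of the gene's TPM. The 81 genes had 172 transcripts with a share of at least 5%, and 33 genes had 1 such transcript. In suspension 46 of the 172 transcripts (26.7%) had groups that did not overlap, against 14.3% of 51559 transcripts of all genes tested, and the median absolute difference of mean share was 0.846 percentage points. With AT0174 13 did (7.56%), against 7.9%, close to the background. These shares are given as a description, with no test, and the files give no error of the assignment of reads to transcripts.

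The largest shift in suspension was within RPL36A, a gene with a log2 fold change of -0.00 for its total. Its transcript ENST00000372849, annotated as a target of nonsense-mediated decay, took 11.3%, 14.0% and 11.9% of the gene in attached cells and 15.2%, 23.4% and 24.5% in suspended cells with vehicle. Its main coding transcript ENST00000471855 took 75.7%, 74.0% and 76.0% against 74.3%, 66.3% and 66.3%, with a narrow overlap. With AT0174 the decay-annotated transcript took 23.5%, 22.1% and 17.2%, within the range of vehicle. RPL36A shares sequence with the readthrough gene RPL36A-HNRNPH2, which was counted separately at 18.3% of the counts of RPL36A, and that gene was not called in suspension (0.26, edgeR adjusted p = 0.237).

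Of the other transcripts named by size of shift in suspension, ENST00000301821 of RPSA went from 66.0% ± 0.65 to 70.9% ± 2.3, ENST00000394667 of RPL34 from 61.3% ± 1.5 to 56.8% ± 2.3 and ENST00000482370 of RPL11, which retains an intron, from 65.6% ± 0.56 to 61.3% ± 1.8 (SD, n = 3 each). At the level of the gene RPL34 was called higher (0.15 ± 0.05, edgeR adjusted p = 0.0469), a call that was lost on leaving out any 1 library but suspended vehicle replicate 1 (0.0684 to 0.158). The 3 transcripts of RPS24, a gene known for alternative splicing of its last exons, kept overlapping shares, at means of 19.0%, 29.7% and 49.4% in attached cells and 20.3%, 28.4% and 49.5% in suspension.

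With AT0174 the largest shifts were in RPL22L1. The coding transcript ENST00000463836 took 32.5%, 33.3% and 33% with vehicle and 26%, 28.8% and 23.0% with AT0174. The decay-annotated ENST00000475836 took 45.8%, 49.3% and 49.1% against 56.5%, 53.7% and 54.3%. In attached cells the same shares were spread more widely, at 39.5%, 26.2% and 37.6% for the coding and 40.6%, 54.6% and 45.4% for the decay-annotated transcript. In RPS28 the intron-retaining ENST00000417088 went from 56.0% ± 1.9 to 58.9% ± 1.1 and the coding ENST00000600659 from 42.8% ± 1.8 to 40.1% ± 1.0 (SD, n = 3 each).

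**Figure D5:**
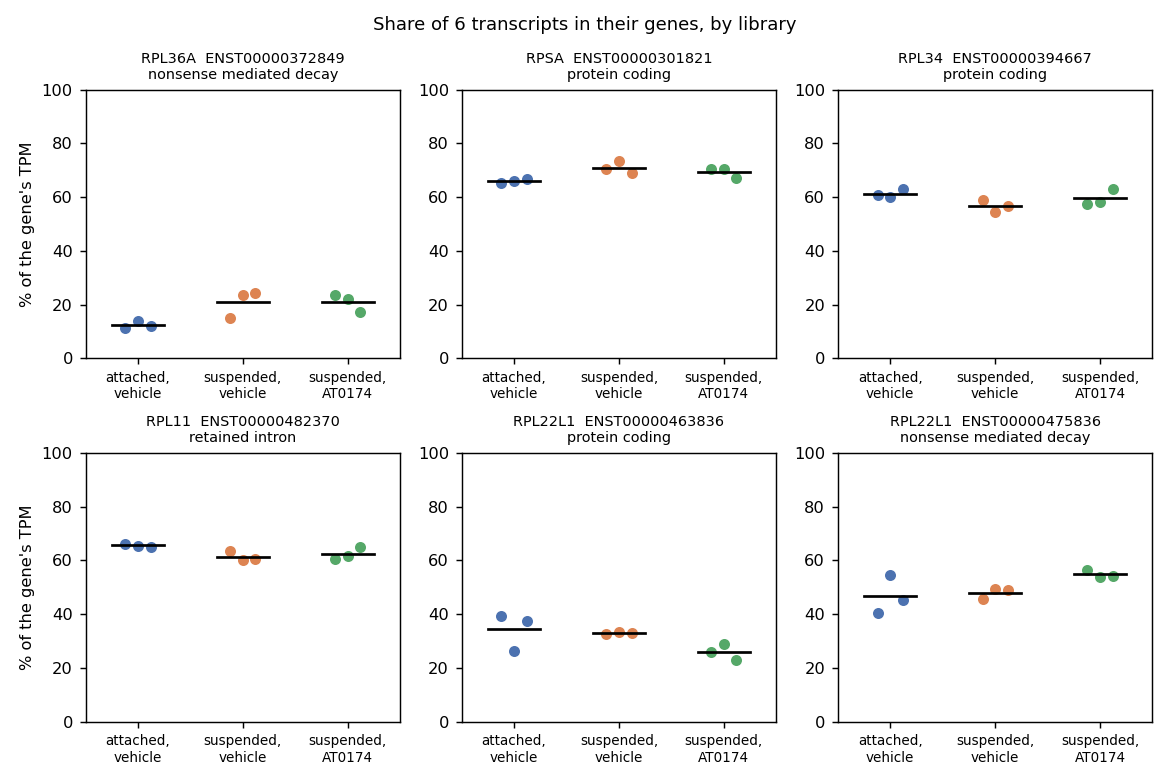
Share of 6 transcripts in the TPM of their gene (percent, axis from 0 to 100) in each of 3 libraries per group, with bars at the group means. The decay-annotated transcript of RPL36A rises from 11.3 to 14.0% in attached libraries to 15.2 to 24.5% in suspended vehicle libraries, and the coding transcript of RPL22L1 lies at 23.0 to 28.8% with AT0174 and at 32.5 to 33.3% with vehicle.

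Reads can also be shared with pseudogenes. The 1295 rows named as pseudogenes of these genes held 1.03% as many counts as the genes themselves, and RPS2 was the only gene for which they exceeded 5%, at 7.51%. The readthrough genes RPL17-C18orf32 and RPS10-NUDT3 held 8.08% and 10.4% of the counts of RPL17 and RPS10.

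Calls in suspension were set beside the TOP-like tracts. Of the 47 genes with a tract 37 were called higher (78.7%), and of the 19 with a window and no tract 15 were (78.9%). With the run allowed to begin within 5 bases of the start, 44 of 54 genes with a tract (81.5%) and 8 of 12 without (66.7%) were called higher, and neither difference was tested. RPL11, RPL36A, RPS25 and RPL26, printed above, hold a tract and were not called, whereas RPS28 and RPS7 hold none at the listed start and were. Both RPS28 and RPS7 hold one when the run may begin within 5 bases of the start.

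Other genes of the translation machinery were counted in the same fit. In suspension 10.4% of all genes tested were called higher and 10.8% lower, beside which the following counts stand. Of 4 ribosomal proteins outside the symbol rule, 3 were called higher, among them RACK1 (0.16) and FAU (0.15), while RPL36AL, the close copy of RPL36A, had -0.06 and was not. Of 21 translation factors and other genes known for a TOP start, 6 (28.6%) were called higher and 0 lower, among them EEF1A1 (0.16 ± 0.03) and EEF2 (0.15 ± 0.03), the main elongation factors, and the median was 0.08. Of 29 genes listed under initiation factors, not all of which act in initiation, 11 (37.9%) were higher and 1 (3.45%) lower. EIF5A (0.23 ± 0.04), which relieves stalled ribosomes, and EIF3I (0.17 ± 0.03) had the smallest p, and the helicase gene EIF4A2 fell (-0.25 ± 0.06). Of 11 genes listed under elongation, termination and recycling, 3 (27.3%) were higher and 0 lower. ABCE1, which splits ribosomes after termination, had 0.22 ± 0.05, and EEF1E1, which is not itself an elongation factor despite its symbol, 0.20 ± 0.05.

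Of 17 genes of mTORC1 and LARP1 control of the TOP mRNAs, 2 (11.8%) were called higher and 2 (11.8%) lower in suspension, near the 10.4% and 10.8% of all genes. RHEB, a GTPase that activates mTORC1, rose by 0.11 ± 0.03 and CNBP, a TOP mRNA-binding protein, by 0.11 ± 0.03. TSC2 (-0.31 ± 0.07) and TSC1 (-0.17 ± 0.05), which act on RHEB as 1 complex, fell. TSC2 stood at 160.3, 157 and 186 CPM in attached cells and 127, 139 and 139 CPM in suspension, and LARP1 itself had 0.04 ± 0.03 and was not called. Of 8 dedicated chaperones of ribosomal proteins, 2 were higher (against 10.4% of all genes) and 0 lower (against 10.8%), a small list, with GRWD1 (0.17 ± 0.04), which escorts RPL3, and HEATR3 (0.13 ± 0.04), which carries RPL5. With AT0174, edgeR called 0 of the 89 genes on these lists, of which 10 (11.2%, against 9.02% of all genes) had an unadjusted p under 0.05. DESeq2 called 1 (EEF1A2, the tissue-restricted form of the elongation factor) and limma-voom 0, again without their shares of all genes.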

How the data were processed

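The authors processed reads with nf-core/rnaseq 3.12.0, trimming with cutadapt 3.4 in Trim Galore 0.6.7, STAR 2.7.9a on GRCh38 with Ensembl release 104, and Salmon 1.10.1, per the labels and the study's methods. The expected counts deposited by the authors are Salmon estimates summed per gene, without normalization. The TPM values deposited by the authors are per transcript and were summed per gene here through the transcript-to-gene map deposited with them. Gene positions and transcript types, such as decay-annotated or intron-retaining, were read from GENCODE release 44. Expected counts were rounded. Genes were filtered with filterByExpr, scaled by TMM and fitted with edgeR 4.0.16 (R 4.3.3; limma 3.58.1) over all 9 libraries with condition as the only term, and p-values were adjusted by Benjamini-Hochberg over 15528 genes. The SE of a change is its size over the root of the F statistic. Single values were compared by two-sided exact permutation tests. Alternatives, among them DESeq2 1.42.0, are in the closing section. The fit was tested on simulated data in which genes changed independently and by more than most of the ribosomal protein genes here. That test does not cover changes as small as these or genes that shift together.

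The genes and the gene lists were chosen with earlier results of these data known. The text names genes by rule (the 6 of smallest p in each direction, the 4 highest and 4 lowest by TPM, paralogs, genes with a known role and the 4 transcripts with the largest non-overlapping shift per comparison), and some genes that count in the totals are not reported here by name. RPS25, RPL9, RPS18, RPS23 and RPL37 were chosen after their values were seen, as were those named for not being called. The labels and the study's methods name different library kits, so strand specificity is not assumed, and overlapping or antisense genes were not separated. Suspended libraries were matched to columns of the gene table by their file labels. Intervals for counting error are not given.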

Additional observations from a re-analysis of the deposited data

How the results depend on the processing

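For suspended against attached cells, 64 ribosomal protein genes were called higher and 0 lower, and the count stayed within 1.5 times of this, with 0 lower, under DESeq2 size factors, TMM without these genes, DESeq2, limma-voom, other filters, 6 libraries, counts rebuilt from TPM and added pseudogene counts. It was 42 at an adjusted p under 0.01 and 51 to 65 when 1 library was left out. Scaling to the sum of the genes, which by its construction removes the common shift, gave 5 higher and 4 lower and a median log2 fold change of 0.0114 (0.000885 for AT0174, where the median of all genes moved to -0.06). The log2 ratio of the summed share was 0.20, and 0.26 as a share of TPM, 0.15 as TMM-scaled CPM and 0.13 outside the mitochondrial genome, an alternative chosen after seeing the data. With AT0174, DESeq2 called 1 gene (RPL37) and the fit without a filter 2 (RPL37 and RPL36A), against 0. The shares of all genes called under the alternative fits and the stricter threshold are not given here. Transcripts with groups apart numbered 46 in suspension and 56 to 83 without 1 library, and 13 with AT0174 and 17 to 38 without 1 library, where fewer libraries leave fewer chances of overlap by construction.

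Scaling to the sum of the genes lowers the log2 fold change of every gene by about the common shift, so genes below that shift change sign by construction. On that scale the log2 fold change in suspension was -0.0147 for RPL10A, -0.0276 for RPL13A, -0.0969 for RPL22, -0.00497 for RPL22L1, -0.102 for RPL23, -0.113 for RPL26, -0.00150 for RPL3, -0.00245 for RPL34, -0.0105 for RPL37, -0.00171 for RPL5, -0.0365 for RPL7, -0.0267 for RPL7L1, -0.0131 for RPLP2, -0.0702 for RPS2, -0.0575 for RPS24, -0.0680 for RPS27L, -0.0466 for RPS4X and -0.0339 for RPS6, and with AT0174 it was -0.00937 for RPS28, -0.0377 for RPLP0 and -0.0210 for RPS6. In suspension RPL11 had 0.00247 under TMM without these genes and 0.00410 without a filter, and RPL36A had 0.000908 without a filter and 0.0219 from counts rebuilt from TPM. Leaving out 1 library gave -0.0133 to 0.0128 for RPL11, -0.00400 to 0.0683 for RPL26, -0.0415 to 0.0523 for RPL36A and -0.0714 to 0.0227 for RPS25 in suspension, and -0.0617 to 0.00774 for RPL22L1 and -0.00655 to 0.0827 for RPS28 with AT0174. In these fits of RPL11, RPL26, RPL36A, RPS25, RPL22L1 and RPS28 the cause of the change of sign was not tested.

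The labels give all 3 groups the replicate numbers 1 to 3, but the deviations of the 9 same-numbered pairs of libraries from their group means correlated at only -0.07 to 0.05, so the numbers were not taken to pair them. With the replicate number as a block, 63 of the 81 genes were called higher in suspension, where RPL34 lost its call (adjusted p = 0.0607), and 0 with AT0174.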
